A study of Homo sapiens with 12 samples.

Results

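Interferon-induced genes are described here by 10 members of the antiviral response: OASL, OAS1, OAS3, IFIT1, IFIT2, IFIT3, ISG15, MX1, IFI6 and GBP1. They were chosen by symbol, each as the row of the count table whose Ensembl identifier carries that symbol, and all 10 were found among the 58233 genes of the table. All 10 also passed the filter on low counts, which left 15749 genes for testing. The measurements are RNA-seq read counts in 12 libraries of MCF10-A, an established line of human breast epithelium that does not form tumours. The libraries form 6 groups of 2: Addback EDTA, Addback NA, B4-4 EDTA, B4-4 NA, Vector EDTA and Vector NA. Addback, B4-4 and Vector are derivatives of the line, and the treatment labels are EDTA, which binds calcium and other metal ions, and NA. All groups share the culture: cells passaged with 5% horse serum were trypsinized and held without serum for 3 hours on plates coated with poly-HEMA, which prevents attachment. The series asks about the integrin made of the alpha 6 and beta 4 chains in detached cells. What NA stands for, the dose and timing of EDTA, how the derivatives were made and whether each is a single clone are not stated in the labels. Libraries of a group are labelled replicates without mention of separate cultures, so p-values measure only the spread between these libraries, which may be technical.

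Interferons are secreted proteins that cells release on sensing foreign nucleic acid. Type I and type III interferons act through receptors that activate JAK kinases and a complex of transcription factors, which binds the interferon-stimulated response element in the promoters of target genes. Interferon gamma acts through gamma-activated sites, and IRF1, itself a target, can bind the same response element as the complex. Epithelial cells keep many of these genes at a low basal level without infection.

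These genes were chosen as interferon-induced, and their promoters were searched for the response element. In RefSeq promoter windows of GRCh38.p14, 8 of the 10 members had an entry, OASL and IFIT2 having none. The response element was searched as GAAA, any 2 bases, then GAAA on both strands in the 250 bases before and 50 bases after each start. It was present for 7 of the 8 matched members, against 3.57% of 35116 promoter windows. A member with several windows counted if any of them matched, whereas the share is per window. OAS1 had no match, but its window holds GAAA, a single base, then GAAA, a spacing that was not searched. Elements that depart from the searched letters are missed, so the lack of a match does not show that a site is absent. The gamma-activated site, searched as TTCNNNGAA, was present for OAS1 and MX1, against 7.66% of windows, and in an MX1 window it overlaps a match to the response element. Stretches of 80 bases are printed for the members that had a match to the response element and are called between 2 groups in the results, 5′ to 3′ on the strand of the gene, with the matches in capitals. A match on the other strand reads as TTTC, any 2 bases, then TTTC.
IFIT1, chr10:89392478-89392557, plus strand: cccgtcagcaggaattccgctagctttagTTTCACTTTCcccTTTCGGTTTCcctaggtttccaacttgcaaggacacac
IFIT3, first start, chr10:89327823-89327902, plus strand: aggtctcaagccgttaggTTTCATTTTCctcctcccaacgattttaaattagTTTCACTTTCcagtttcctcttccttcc
IFIT3, second start, chr10:89332421-89332500, plus strand: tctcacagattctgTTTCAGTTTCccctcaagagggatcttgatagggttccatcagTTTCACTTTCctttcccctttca
ISG15, chr1:1013352-1013431, plus strand: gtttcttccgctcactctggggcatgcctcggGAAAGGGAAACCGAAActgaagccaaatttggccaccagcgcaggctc
IFI6, chr1:27672273-27672352, minus strand: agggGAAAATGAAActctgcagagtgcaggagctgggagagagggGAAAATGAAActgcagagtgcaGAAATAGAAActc
GBP1, chr1:89065291-89065370, minus strand: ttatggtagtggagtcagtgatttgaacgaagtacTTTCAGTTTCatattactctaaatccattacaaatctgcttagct
IFIT1 carried matches 116 and 103 bases before its start, and IFIT3 carried 2 matches before each of 2 starts. ISG15 carried 2 overlapping matches, IFI6 carried 3, and GBP1 carried 1 match, 127 bases before its start. A match describes the letters of the window and is not a measured site.

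Library totals ran from 15685376 to 22156173 counts, and a count of 3 in a library was 0.135 to 0.191 CPM, the count scaled to a common library total. Levels below are CPM of totals scaled by TMM. The cells had the keratins of basal epithelium, with KRT5 at 4319 to 6782 CPM. Of the luminal keratins, KRT8 was at 169 to 575 CPM and KRT18 at 303 to 450.2 CPM, while KRT19 had 33 counts in all. Of 7 leukocyte markers, CD3E, LYZ and TYROBP had no count in any library and PTPRC had 6 counts in all, while CD14 was present in every library. ITGB4, the gene of the beta 4 chain, was between 1060 and 1525 CPM in Addback, between 182 and 395 CPM in B4-4 and between 1678 and 1850 CPM in Vector. Replicates were unequally close. Among 10632 genes of at least 5 CPM, 234 were 2-fold or more apart between the Addback EDTA libraries and 400 between the B4-4 NA libraries, against 5 to 11 in the other groups. Addback EDTA 2 was also the only library of its sequencing lane and of its run of library identifiers. A run here is a set of identifier numbers alike in all but the last digit, not a stated sequencing run. A fit with the run as a term fits that library exactly. For contrasts with Addback EDTA, that term and leaving out the library are therefore not separate checks.

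The 10 genes covered a wide range of levels. Per kilobase of exon, the mean level over 12 libraries was 16.3 CPM for OAS3, 11.5 for GBP1, 7.87 for IFI6, 3.64 for OAS1, 3.23 for ISG15, 2.65 for IFIT3, 1.80 for OASL, 1.22 for IFIT1 and 1.17 for IFIT2. MX1 lay far below, at 0.0951 CPM per kilobase and 4 to 22 counts in a library, so a difference in MX1 had little chance of being seen at this depth. The ratio of the highest to the lowest library ran from 1.51 for OAS3 to 9.68 for GBP1.

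**Figure D1:**
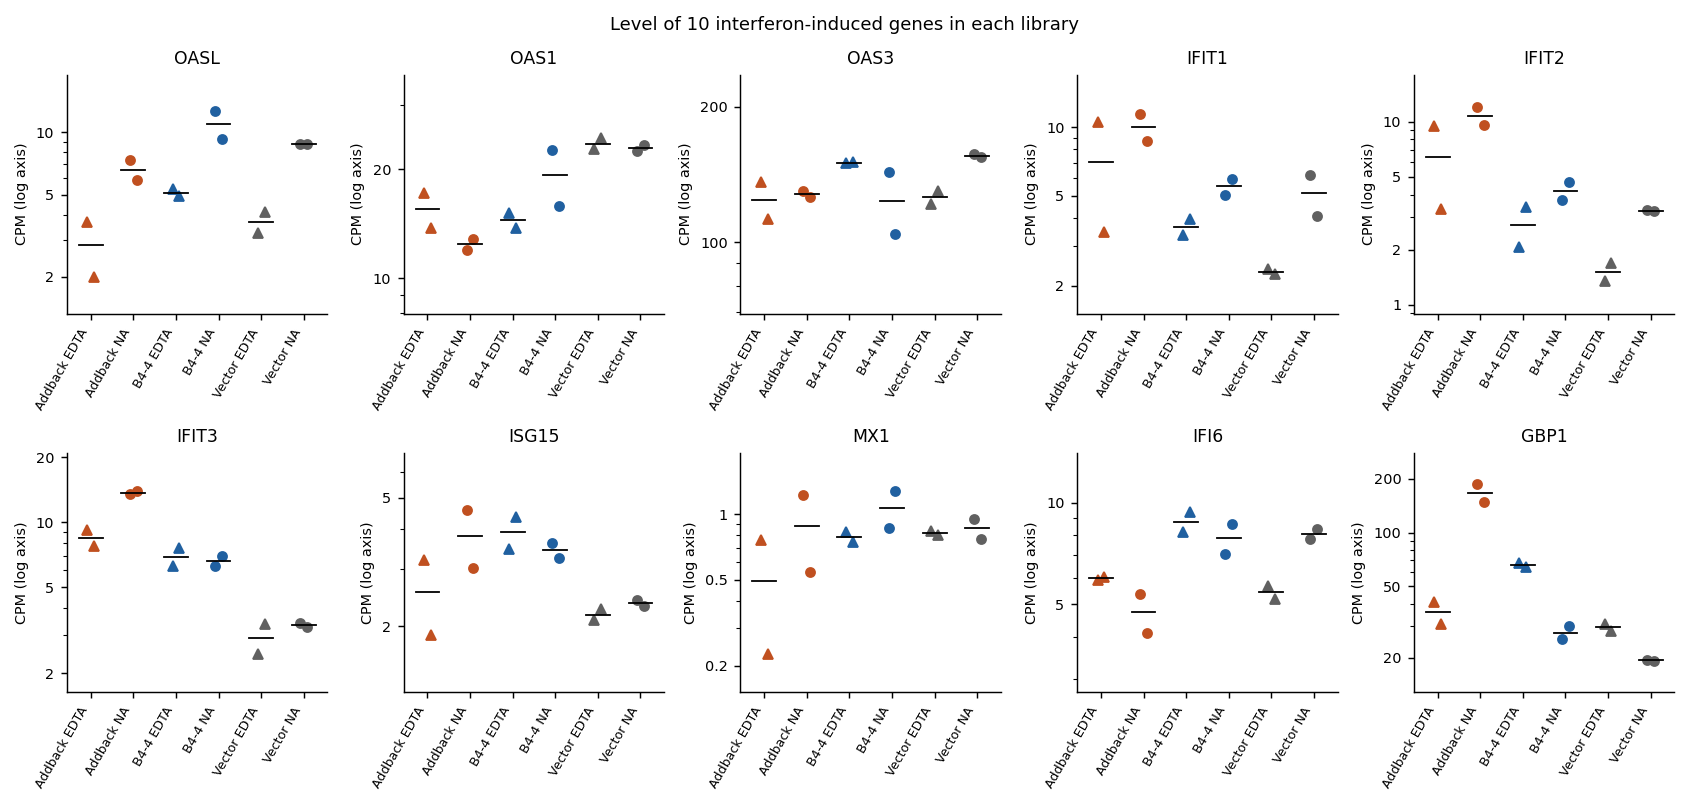
CPM on a log axis (vertical, each panel with its own range) of the 10 genes in the 6 groups (horizontal). Each point is a library, triangles are EDTA and circles NA, colours mark the derivative, and the bar is the mean of 2 libraries; GBP1 stands highest in Addback NA and OASL is lower in EDTA than in NA in each derivative.

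The oligoadenylate synthetase family was examined first for EDTA. OASL (ENSG00000135114, chromosome 12, 121019111 to 121039242, minus strand), a synthetase-like protein without synthetase activity that enhances RIG-I signalling, was lower under EDTA in each derivative. OASL was at 3.68 and 1.99 CPM in Addback EDTA, against 7.33 and 5.85 CPM in Addback NA. In B4-4 it was at 5.33 and 4.90 CPM in EDTA, against 12.7 and 9.26 CPM in NA. In Vector it was at 3.24 and 4.12 CPM in EDTA, against 8.74 and 8.74 CPM in NA. Each of the 6 EDTA libraries was below each of the 6 NA libraries. With 2 libraries in a group, libraries of compared groups did not overlap for 54.1% to 79.4% of all tested genes, so a lack of overlap between 1 pair of groups is common. Over the 3 derivatives OASL fell by 1.19 on the log2 scale (SE 0.15), with an adjusted p of 0.00114 in edgeR's quasi-likelihood test, the Benjamini-Hochberg adjustment covering all 15749 genes. A gene is called where this adjusted p is under 0.05. In bulk RNA, fewer cells of a type and less RNA per cell cannot be told apart.

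OASL was the only 1 of the 10 genes called in the contrast of EDTA with NA over the 3 derivatives, in which 9.18% of all tested genes were called, 3.97% higher and 5.2% lower. It was also called within each derivative. The log2 fold change was -1.22 (SE 0.28, adjusted p 0.0123) in Addback, -1.10 (SE 0.26, adjusted p 0.0124) in B4-4 and -1.24 (SE 0.26, adjusted p 0.00773) in Vector, by edgeR. Within the runs of library identifiers that hold both treatments, the difference was -0.83 in Addback, -1.31 in B4-4 and -1.42 in Vector. These calls within 1 derivative are less firm than that over 3. The Addback call ended without Addback EDTA 2 (adjusted p 0.0948, edgeR) or without Addback NA 1 (0.120), and with the identifier run as a term (0.0655). The B4-4 call ended without either B4-4 EDTA library (up to 0.103) and in the fit of those groups alone (0.0678). Leaving out Vector EDTA 1, Vector NA 1 or Vector NA 2 ended the Vector call, whereas the call over the 3 derivatives kept an adjusted p of at most 0.00920 in each of the 12 fits that left out a library. The EDTA effects on OASL differed between derivatives by 0.03 (SE 0.39) for Addback minus Vector, 0.14 (SE 0.36) for B4-4 minus Vector and -0.11 (SE 0.38) for Addback minus B4-4, and none of these was called.

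The synthetases OAS1 and OAS3, which make the oligoadenylates that activate RNase L when double-stranded RNA is present, were not called for EDTA in any derivative. OAS1 (ENSG00000089127, chromosome 12, 112906777 to 112933222, plus strand) was at 17.2 and 13.8 CPM in Addback EDTA, against 11.97 and 12.8 CPM in Addback NA. OAS1 was at 15.1 and 13.8 CPM in B4-4 EDTA, against 22.6 and 15.8 CPM in B4-4 NA, and had 22.7 and 24.3 CPM in Vector EDTA, against 22.5 and 23.3 CPM in Vector NA. Its EDTA contrast passed the test in no derivative, with log2 fold changes of 0.32, -0.41 and 0.03 in Addback, B4-4 and Vector. OAS3 (ENSG00000111331, chromosome 12, 112938352 to 112973249, plus strand), the next gene along from OAS1, was at 136 and 112 CPM in Addback EDTA, against 129.7 and 126 CPM in Addback NA. In B4-4 OAS3 was at 149.8 and 151 CPM in EDTA, against 143 and 104 CPM in NA, and in Vector at 122 and 130.1 CPM in EDTA, against 157 and 154 CPM in NA. No EDTA contrast of OAS3 was called within a derivative. Its EDTA effect in B4-4 exceeded that in Vector by 0.59 on the log2 scale (SE 0.19, edgeR adjusted p 0.0387). That difference dropped to 0.39 without B4-4 NA 2 (adjusted p 0.0518), the library with the lowest OAS3 level, and 3 of the 12 fits that left out a library kept the call. It also ended with upper-quartile scaling (adjusted p 0.0798), with the identifier run as a term (0.118) and in the fit of those groups alone (0.0648).

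The IFIT genes lie side by side on chromosome 10. IFIT1 binds viral RNA that lacks the methylation of host messages, and IFIT2 and IFIT3 form complexes with it. IFIT1 (ENSG00000185745, 89392546 to 89406486, plus strand) was at 10.6 and 3.47 CPM in Addback EDTA, against 11.4 and 8.72 CPM in Addback NA. In B4-4 it was at 3.36 and 3.94 CPM in EDTA, against 5.05 and 5.94 CPM in NA, and in Vector at 2.36 and 2.26 CPM in EDTA, against 6.17 and 4.06 CPM in NA. EDTA and NA libraries of IFIT1 did not overlap in B4-4 and Vector but overlapped in Addback, where the EDTA libraries were 3.05-fold apart. IFIT2 (ENSG00000119922, 89283694 to 89309276, plus strand) was at 9.41 and 3.36 CPM in Addback EDTA, against 12.03 and 9.54 CPM in Addback NA. In B4-4 it had 2.07 and 3.41 CPM in EDTA, against 3.73 and 4.66 CPM in NA, and in Vector 1.34 and 1.68 CPM in EDTA, against 3.31 and 3.24 CPM in NA. The EDTA libraries of IFIT2 were below the NA libraries in each derivative.

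Neither gene passed the edgeR test for EDTA. Over the 3 derivatives the log2 fold change was -0.83 (SE 0.24, edgeR adjusted p 0.0531) for IFIT2 and -0.75 (SE 0.24, adjusted p 0.0761) for IFIT1. Both passed in DESeq2 (adjusted p 0.0105 for IFIT2 and 0.0190 for IFIT1) and with the identifier run as a term (0.0174 for IFIT2 and 0.0290 for IFIT1). That term fits Addback EDTA 2, the only library of its run, exactly, so it takes out the gap between the Addback EDTA libraries. The log2 fold changes with it were smaller, at -0.64 (SE 0.15) for IFIT2 and -0.55 (SE 0.14) for IFIT1. In the Addback run that holds both treatments the differences were -0.19 for IFIT2 and 0.08 for IFIT1. IFIT2 shares 65 bases of exon with LIPA on the opposite strand, which had 28837 counts against 1042 for IFIT2. No label states the strand setting of the counting, so reads of that stretch cannot be told apart.

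IFIT3 (ENSG00000119917, 89327894 to 89340971, plus strand) was at 9.24 and 7.73 CPM in Addback EDTA, against 13.5 and 14.0 CPM in Addback NA. In B4-4 it was at 6.26 and 7.61 CPM in EDTA, against 6.26 and 6.96 CPM in NA, and in Vector at 2.46 and 3.37 CPM in EDTA, against 3.42 and 3.29 CPM in NA. Only in Addback were the EDTA libraries apart from the NA libraries. There IFIT3 fell by 0.69 on the log2 scale (SE 0.19, edgeR adjusted p 0.0258), and by 0.57 within the run shared by Addback EDTA 1 and both Addback NA libraries. The call ended without Addback EDTA 2, either Addback NA library or either Vector NA library (adjusted p up to 0.143), and with the run as a term (0.0651). The difference of its EDTA effect in Addback from that in Vector (-0.49, SE 0.29) or in B4-4 (-0.76, SE 0.27, adjusted p 0.0997) was not called.

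GBP1 (ENSG00000117228, chromosome 1, 89052319 to 89065360, minus strand), an interferon gamma-induced GTPase that coats intracellular pathogens, changed in opposite directions under EDTA. In Addback it was at 41.1 and 30.9 CPM in EDTA, against 186 and 149 CPM in NA. B4-4 cells had 67.8 and 64.1 CPM in EDTA, against 25.3 and 29.8 CPM in NA, and Vector cells had 30.8 and 28.1 CPM in EDTA, against 19.3 and 19.2 CPM in NA. EDTA and NA libraries did not overlap in any derivative. GBP1 fell by 2.22 on the log2 scale in Addback (SE 0.15, edgeR adjusted p 1.47e-05), rose by 1.26 in B4-4 (SE 0.15, adjusted p 0.000343) and rose by 0.61 in Vector (SE 0.15, adjusted p 0.0192). Within shared runs of library identifiers the differences were -2.02, 1.38 and 0.67 in Addback, B4-4 and Vector. The calls in Addback and B4-4 were kept in each fit that left out a library, while the call in Vector ended without either Vector EDTA library or either Vector NA library (adjusted p up to 0.128).

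The differences between these EDTA effects on GBP1 were themselves called. The effect in Addback was below that in B4-4 by 3.48 on the log2 scale, as a difference of -3.48 (SE 0.21, edgeR adjusted p 1.1e-05), and differed from that in Vector by -2.83 (SE 0.21, adjusted p 6.3e-06). The effect in B4-4 exceeded that in Vector by 0.65 (SE 0.21, adjusted p 0.0408), which ended without 7 of the 12 libraries in turn, among them each Vector library and each B4-4 EDTA library, and with upper-quartile scaling (adjusted p 0.0899). The pseudogene GBP1P1 resembles GBP1 and could exchange reads with it. Its counts were 15 and 14 in the Addback NA libraries and 0 to 6 in the others, against at least 345 for GBP1.

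ISG15 (ENSG00000187608, chromosome 1, 1001138 to 1014540, plus strand), a ubiquitin-like modifier, IFI6 (ENSG00000126709, chromosome 1, 27666061 to 27672218, minus strand), a small antiviral membrane protein, and MX1 (ENSG00000157601, chromosome 21, 41420304 to 41459214, plus strand), a dynamin-like antiviral GTPase, were not called for EDTA in any derivative. ISG15 ranged from 1.88 to 3.22 CPM in Addback EDTA, against 3.03 to 4.59 CPM in Addback NA. IFI6 was at 5.91 and 6.03 CPM in Addback EDTA, against 5.37 and 4.12 CPM in Addback NA, and had 5.65 and 5.19 CPM in Vector EDTA, against 7.79 and 8.38 CPM in Vector NA. IFI6 libraries thus lay higher under EDTA in Addback and lower under EDTA in Vector. The difference of these effects, Addback minus Vector, was 0.91 on the log2 scale (SE 0.27, edgeR adjusted p 0.0293), and 6 of the 12 fits that left out a library kept that call, leaving out either Vector EDTA library, either Vector NA library, Addback EDTA 2 or Addback NA 2 ending it. DESeq2 did not call it (adjusted p 0.0528). MX1 was at 0.760 and 0.227 CPM in Addback EDTA, against 1.23 and 0.542 CPM in Addback NA, and at 0.746 to 1.28 CPM in the 8 other libraries.

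By counts, the EDTA calls among the 10 genes lay near the background in B4-4 and Vector. In Addback 3 of 10 were lower and none higher, where 16.9% of tested genes were called, 8.64% higher and 8.29% lower. The members' median log2 fold change there was -0.64 beside 0.01 for all genes. These Addback values depend on Addback EDTA 2, the only library of its run. Within the run that holds Addback EDTA 1 and both Addback NA libraries, the differences ran from -2.02 for GBP1 to 0.47 for OAS1. OAS3, IFIT1 and IFI6 were also above 0 within that run. In B4-4 1 was higher and 1 lower, where 19.9% of genes were called, 9.88% higher and 10% lower, with a median of -0.17 beside -0.01. In Vector 1 was higher and 1 lower, where 15.3% were called, 6.36% higher and 8.98% lower, with a median of -0.25 beside 0.00. Of the differences between EDTA effects, those of Addback minus Vector were called for 2 of 10 members (24.2% of genes), those of B4-4 minus Vector for 2 (27%) and those of Addback minus B4-4 for 1 (8.78%, 4.22% higher and 4.57% lower).

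**Figure D2:**
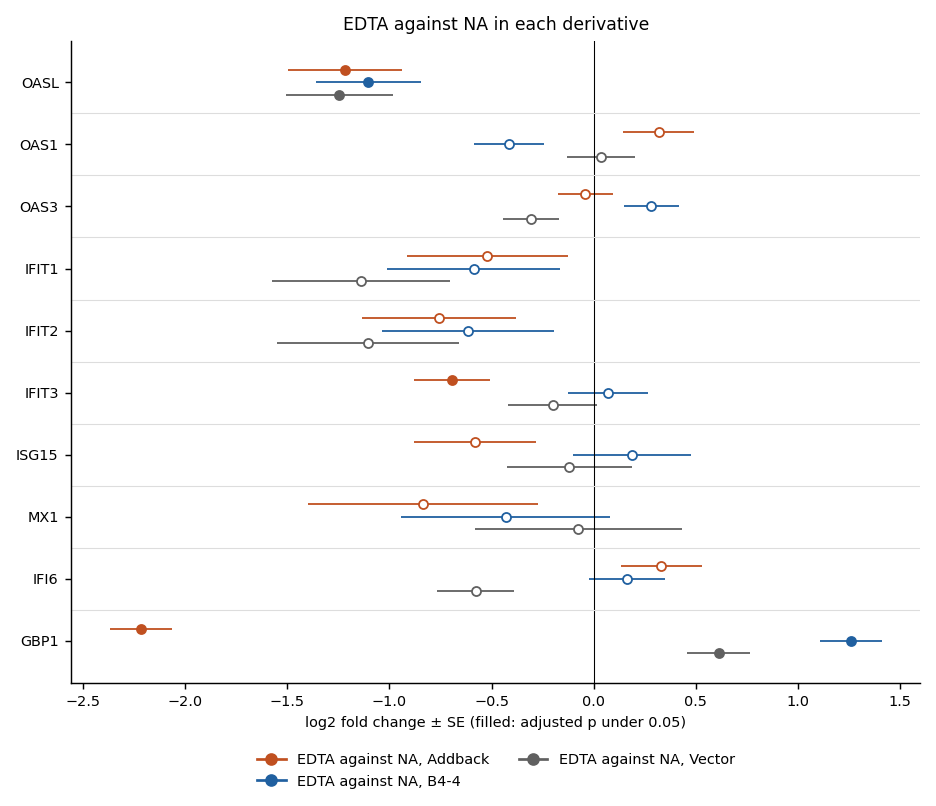
Log2 fold change of EDTA against NA (horizontal, with bars of 1 SE) for the 10 genes (vertical) in Addback, B4-4 and Vector. Filled points passed the adjusted p of 0.05; OASL is filled and near -1.2 in each derivative, and GBP1 lies at -2.22 in Addback, 1.26 in B4-4 and 0.61 in Vector.

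The derivatives were then compared within a treatment. The Addback and B4-4 comparisons share the Vector libraries, and those of Addback with Vector and with B4-4 share the Addback libraries, so they are not independent. In NA, GBP1 was at 186 and 149 CPM in Addback, at 25.3 and 29.8 CPM in B4-4 and at 19.3 and 19.2 CPM in Vector. It was 8.68-fold higher in Addback than in Vector (log2 3.12, SE 0.16, edgeR adjusted p 1e-07) and 6.07-fold higher in Addback than in B4-4 (log2 2.60, SE 0.15, adjusted p 9.95e-07). Within the run shared by both Addback NA libraries and B4-4 NA 2 the difference of Addback from B4-4 was 2.48. No run holds NA libraries of both Addback and Vector, but runs are shared through the other groups, and with the run as a term the log2 difference of Addback from Vector was 3.07 (SE 0.17, adjusted p 1.16e-06). B4-4 against Vector in NA missed the threshold for GBP1 (log2 0.51, SE 0.15, adjusted p 0.0637).

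The GBP1 order was reversed between Addback and B4-4 in EDTA. GBP1 was at 41.1 and 30.9 CPM in Addback EDTA, at 67.8 and 64.1 CPM in B4-4 EDTA and at 30.8 and 28.1 CPM in Vector EDTA. Addback was below B4-4 (log2 -0.87, SE 0.15, edgeR adjusted p 0.00252) and B4-4 was above Vector (log2 1.16, SE 0.15, adjusted p 8.82e-05), and no call was made between Addback and Vector (log2 0.29, SE 0.15, adjusted p 0.163). From the highest level down, the groups ran Addback NA, B4-4 EDTA, Addback EDTA, Vector EDTA, B4-4 NA and Vector NA. Addback EDTA and Vector EDTA were adjacent and not called apart, and the libraries of Vector EDTA and B4-4 NA overlapped.

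IFIT3 was higher in both Addback and B4-4 than in Vector under either treatment. In NA it was at 13.5 and 14.0 CPM in Addback, at 6.26 and 6.96 CPM in B4-4 and at 3.42 and 3.29 CPM in Vector. In EDTA it was at 9.24 and 7.73 CPM in Addback, at 6.26 and 7.61 CPM in B4-4 and at 2.46 and 3.37 CPM in Vector. Every Addback and B4-4 library exceeded every Vector library. In NA the log2 fold change was 2.03 for Addback against Vector (SE 0.20, edgeR adjusted p 1.86e-05), 0.98 for B4-4 against Vector (SE 0.21, adjusted p 0.0175) and 1.06 for Addback against B4-4 (SE 0.19, adjusted p 0.00238). In EDTA it was 1.54 for Addback against Vector (SE 0.20, adjusted p 0.000223) and 1.25 for B4-4 against Vector (SE 0.21, adjusted p 0.000503), with 0.29 (SE 0.19, adjusted p 0.345) for Addback against B4-4. The call of B4-4 against Vector in NA ended without either Vector NA library (adjusted p up to 0.166) and in the fit of those groups alone (0.160), and the other calls were kept in each fit that left out a library.

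IFIT2 was called in 3 of the 4 Addback comparisons and IFIT1 in 1. IFIT2 rose by 1.72 on the log2 scale in Addback against Vector in NA (SE 0.39, edgeR adjusted p 0.00591), by 2.07 in EDTA (SE 0.43, adjusted p 0.00435) and by 1.36 in Addback against B4-4 in NA (SE 0.39, adjusted p 0.0267). Addback against B4-4 in EDTA was not called for IFIT2 (log2 1.22, SE 0.41, adjusted p 0.0697), and its libraries overlapped. IFIT1 was called in Addback against Vector in EDTA alone (log2 1.599, SE 0.43, adjusted p 0.0169). That value rests on Addback EDTA 1, since without it the difference was 0.59 (adjusted p 0.188). The call also ended without either Vector EDTA library (up to 0.0993) and in the fit of those groups alone (0.0823), and the EDTA value of IFIT2 was 1.15 without the same library, still called. The calls for IFIT2 ended without Vector NA 2 in NA (adjusted p 0.0534), without Vector EDTA 1 in EDTA (0.0534), and, against B4-4, without any of the 4 Addback NA and B4-4 NA libraries (up to 0.154). Within the run that holds both Addback NA libraries and B4-4 NA 2, IFIT2 differed by 1.20 and IFIT3 by 0.98. Between Addback EDTA 1 and Vector EDTA 2, which share a run, IFIT1 differed by 2.21, IFIT2 by 2.46 and IFIT3 by 1.45.

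OAS1 was lower in Addback than in Vector. In NA it was at 11.97 and 12.8 CPM in Addback, at 22.6 and 15.8 CPM in B4-4 and at 22.5 and 23.3 CPM in Vector, and every Addback NA library was below the B4-4 NA and Vector NA libraries. The log2 fold change was -0.88 for Addback against Vector in NA (SE 0.17, edgeR adjusted p 0.00194), a call kept in each fit that left out a library. OAS1 was also lower in EDTA, by -0.60 in Addback against Vector (SE 0.17, adjusted p 0.0185) and by -0.70 in B4-4 against Vector (SE 0.17, adjusted p 0.00553). The EDTA value for Addback was -0.45 without Addback EDTA 2 (adjusted p 0.132) and -0.36 with the identifier run as a term (0.188), and the call also ended without either Vector EDTA library. The EDTA value for B4-4 was -0.64 without B4-4 EDTA 2 (adjusted p 0.0591). Addback against B4-4 in NA gave -0.63 (SE 0.17, adjusted p 0.0205), and -0.34 without B4-4 NA 1 (adjusted p 0.153), and that call also ended without either Addback NA library and in the fit of those groups alone (0.126).

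IFI6 was lower in Addback NA, at 5.37 and 4.12 CPM, than in B4-4 NA, at 7.06 and 8.62 CPM, and Vector NA, at 7.79 and 8.38 CPM. The log2 fold changes were -0.72 (SE 0.19, edgeR adjusted p 0.0189) against B4-4 and -0.77 (SE 0.19, adjusted p 0.00841) against Vector. Both calls ended without Addback NA 2, the library with the lowest IFI6 level (adjusted p up to 0.154), the first also without B4-4 NA 2 and in the fit of those groups alone (0.122), and the second without Vector NA 2. In EDTA, B4-4 was higher than Vector for IFI6 (0.69, SE 0.19, adjusted p 0.0101) and for ISG15 (0.85, SE 0.29, adjusted p 0.0341). ISG15 was at 3.46 and 4.37 CPM in B4-4 EDTA, against 2.08 and 2.26 CPM in Vector EDTA. The IFI6 call ended without B4-4 EDTA 2 or Vector EDTA 2 (adjusted p up to 0.0938), and the ISG15 call ended without any of 6 libraries (up to 0.216), namely each library of B4-4 EDTA, Vector EDTA and Vector NA, and in DESeq2 (0.0642) and with upper-quartile scaling (0.0589). Within the run that holds both B4-4 EDTA libraries and Vector EDTA 1, IFI6 differed by 0.63, ISG15 by 0.89, GBP1 by 1.10, IFIT3 by 1.48 and OAS1 by -0.65.

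Among the derivative comparisons, B4-4 against Vector in EDTA had 4 members higher and 1 lower, where 43.4% of all tested genes were called, 22.9% higher and 20.4% lower, so a call there is common for any gene. The members' median log2 fold change in that comparison was 0.68 beside 0.00 for all genes. B4-4 against Vector in NA had 1 member higher (7.16% of genes called, 3.38% higher and 3.78% lower). Addback against Vector had 3 higher and 2 lower in NA (36.1% of genes called, 17.9% higher and 18.1% lower) and 3 higher and 1 lower in EDTA (30% of genes called, 16.1% higher and 14% lower), with medians of 0.36 and 0.18 beside 0.01 and 0.01. Addback against B4-4 had 3 higher and 2 lower in NA (23.6% of genes called, 11.3% higher and 12.3% lower) and 1 lower in EDTA (14.1% of genes called, 6.54% higher and 7.54% lower).

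**Figure D3:**
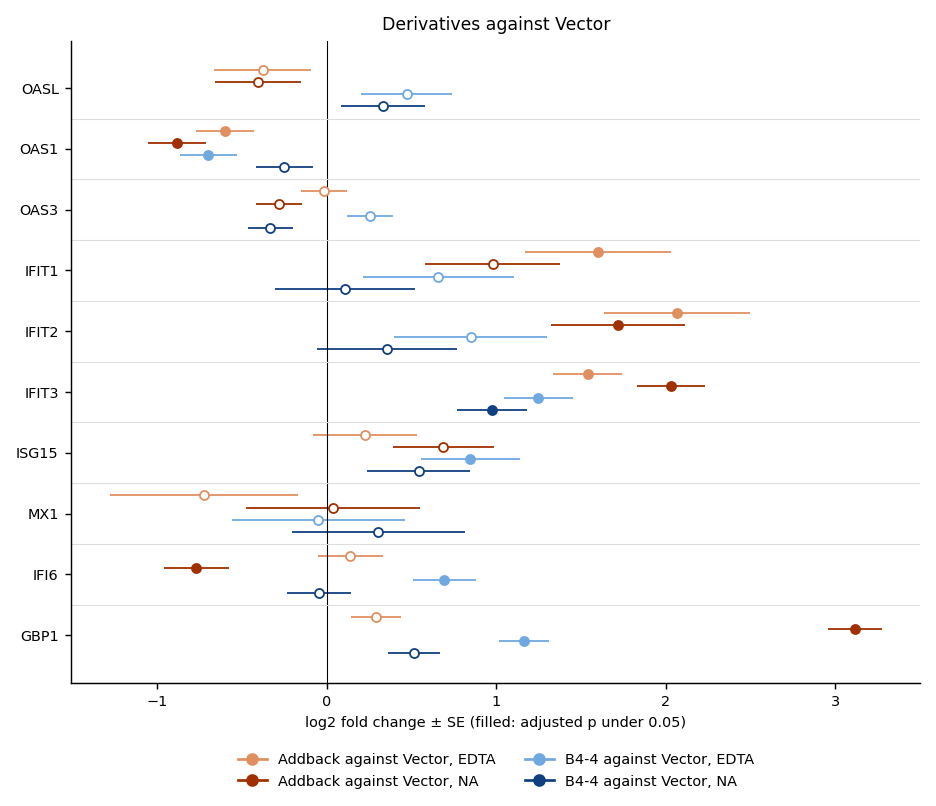
Log2 fold change against Vector (horizontal, with bars of 1 SE) for the 10 genes (vertical), for Addback and B4-4 in EDTA and NA. Filled points passed the adjusted p of 0.05; IFIT3 is filled in all 4 comparisons, GBP1 reaches 3.12 in Addback NA, and OAS1 lies below 0 in all 4 comparisons.

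Other genes of the pathway were followed in a list of 110, of which 94 were tested. The 9 ligand genes were at or near 0. IFNB1 and IFNG had no count in any library, which allows a level of up to 0.135 to 0.191 CPM, and IFNE, an epithelial type I interferon, reached 0.0569 to 0.566 CPM. The wider list had 2 genes higher and 19 lower under EDTA in Addback, 13 higher and 13 lower in B4-4, and 4 higher and 15 lower in Vector. The share of all genes called higher was 8.64% in Addback, 9.88% in B4-4 and 6.36% in Vector. The share called lower was 8.29% in Addback, 10% in B4-4 and 8.98% in Vector. Named genes are those called with the smallest p, at most 2 per role and direction, and 93 of 164 such calls were kept in each fit that left out a library.

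The chemokines and GBP2, like GBP1, had their highest levels in Addback NA. The 46 tested genes of their role, other induced genes, went both ways there. Against Vector in NA, 12 were higher and 11 lower in Addback, beside 17.9% and 18.1% of all genes. HERC5 gave -2.11 (SE 0.23, edgeR adjusted p 3.93e-05) and TRIM22 -1.18 (SE 0.14, adjusted p 6.36e-05) on the log2 scale. Against B4-4 in NA, 9 were higher and 9 lower, beside 11.3% and 12.3% of all genes. CXCL10, which attracts T cells, was at 3.57 and 0.569 CPM in Addback EDTA, against 15.4 and 14.6 CPM in Addback NA, and was at 0.168 to 0.861 CPM in the 8 other libraries. Its 544 counts in Addback NA against 7 in Vector NA gave a ratio of 79.8 (exact 95% counting interval 38.5 to 199). CXCL11, a ligand of the same receptor, had 341 counts in Addback NA against 4 in Vector NA, a ratio of 87.5 (33.9 to 323). GBP2, a relative of GBP1, was at 42.2 and 21.8 CPM in Addback EDTA, against 122 and 112 CPM in Addback NA. Under EDTA in Addback, CXCL10 fell by 2.86 (SE 0.51, edgeR adjusted p 0.00413) and GBP2 fell by 1.87 (SE 0.29, adjusted p 0.00338) on the log2 scale, calls that were kept in each fit that left out a library and ended in the fit of those groups alone. For CXCL10 the size depends on the Addback EDTA library used, at -4.69 without Addback EDTA 1 and -2.07 without Addback EDTA 2.

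Markers of other cells varied between groups too. The summed level of the 7 leukocyte markers, nearly all of it CD14, was lower in EDTA in each derivative. It was 8.64 to 35.3 CPM in Addback EDTA, against 47.5 to 54.8 CPM in Addback NA. In B4-4 it was 7.14 to 8.09 CPM in EDTA, against 12.3 to 14.0 CPM in NA, and in Vector 9.27 to 9.88 CPM in EDTA, against 13.1 to 14.2 CPM in NA. GBP1 fell under EDTA in Addback and rose in B4-4 and Vector, so this sum and GBP1 ran alike under EDTA in Addback and oppositely in B4-4 and Vector. Of 4 markers of plasmacytoid dendritic cells, the main producers of type I interferon in blood, CLEC4C and LILRA4 had no count in any library. IL3RA was at 0.692 to 3.81 CPM and TCF4 at 17.8 to 27.5 CPM, and the list summed to 18.9 to 29.9 CPM. The sum of 7 fibroblast markers was 37.4 to 68.1 CPM in Addback EDTA, 56.3 to 56.6 CPM in Addback NA and 15.1 to 30.8 CPM in the other groups. The sum of 4 endothelial markers, nearly all of it PECAM1, was 11.8 to 34.3 CPM in Addback EDTA, 31.0 to 32.1 CPM in Addback NA, 3.35 to 3.62 CPM in B4-4 EDTA, 9.39 to 25.1 CPM in B4-4 NA and 22.9 to 25.2 CPM in Vector, with CDH5 at 0 in every library. Their part in the levels of GBP1, IFIT3 and the chemokines was not tested.

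**Figure D4:**
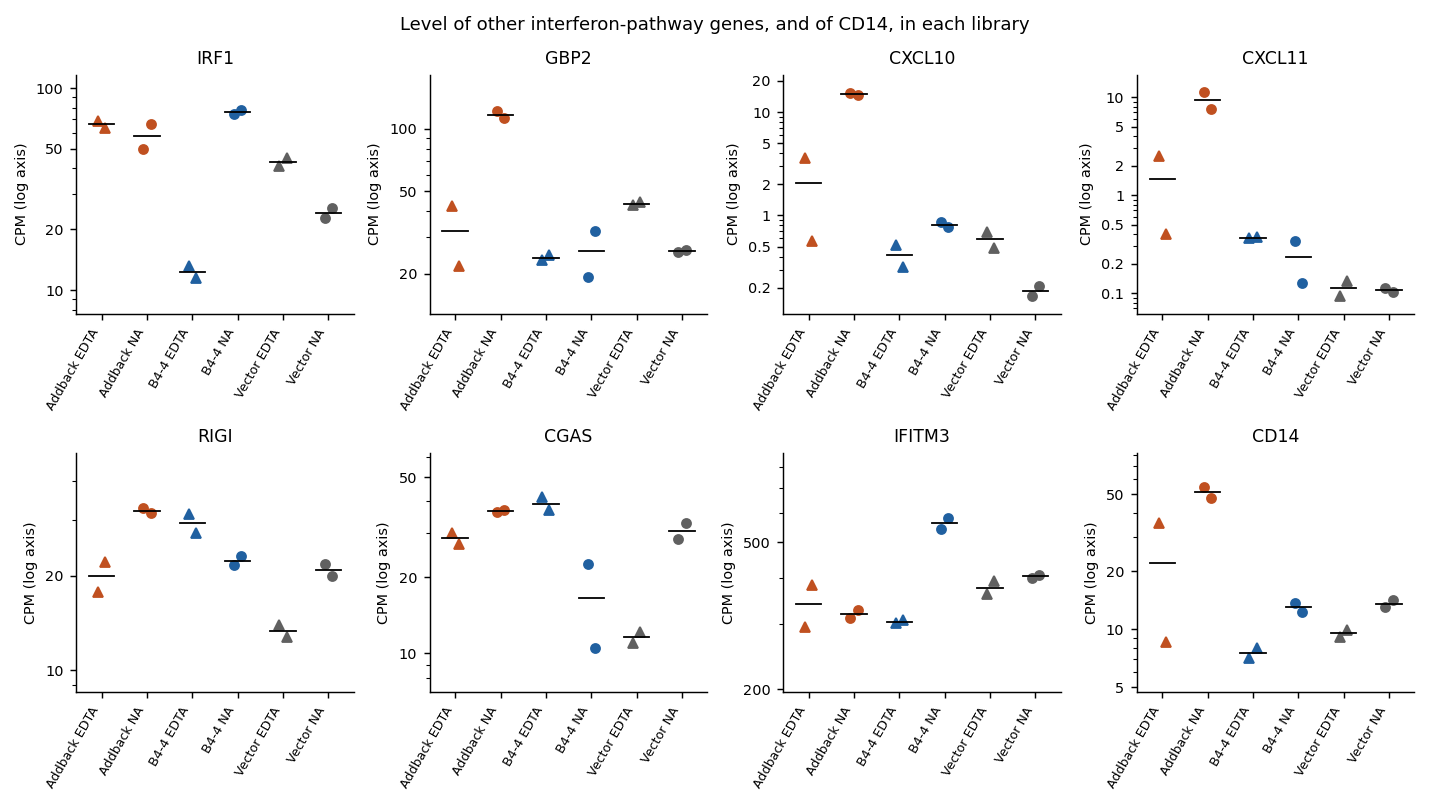
CPM on a log axis (vertical, each panel with its own range) of 7 other interferon-pathway genes and of CD14 in the 6 groups (horizontal). Points are libraries, triangles EDTA and circles NA, and bars the mean of 2 libraries; GBP2, CXCL10, CXCL11 and CD14 are highest in Addback NA, and IRF1 is lowest in B4-4 EDTA.

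Receptors, sensors and transcription factors each had their own pattern. IRF1, which drives GBP1 and other interferon gamma targets, was at 68.5 and 63.7 CPM in Addback EDTA, against 49.9 and 66.4 CPM in Addback NA. In B4-4 it was at 13.2 and 11.4 CPM in EDTA, against 74.3 and 77.9 CPM in NA, and in Vector at 41.0 and 44.8 CPM in EDTA, against 22.8 and 25.5 CPM in NA. IRF1 fell by 2.63 on the log2 scale in B4-4 (SE 0.15, edgeR adjusted p 2.91e-06) and rose by 0.83 in Vector (SE 0.14, adjusted p 0.00215). GBP1 rose under EDTA in both of these derivatives, so the levels of IRF1 and GBP1 moved oppositely in B4-4 and alike in Vector. In Addback GBP1 fell by 2.22 under EDTA, while the IRF1 libraries of EDTA and NA overlapped. Whether IRF1 had a part in the level of GBP1 was not tested. STAT2, a subunit of the complex that type I interferon activates, fell by 0.44 over the 3 derivatives (SE 0.07, adjusted p 0.00271).

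Among the sensors, IFIH1, a detector of long double-stranded RNA, fell under EDTA over the 3 derivatives by 0.47 (SE 0.07, edgeR adjusted p 0.00187). CGAS, the cytosolic DNA sensor, was at 41.6 and 36.9 CPM in B4-4 EDTA, against 22.5 and 10.5 CPM in B4-4 NA, and had 11.03 and 12.1 CPM in Vector EDTA, against 28.4 and 32.9 CPM in Vector NA. Its EDTA effect in B4-4 exceeded that in Vector by 2.64 (SE 0.36, adjusted p 0.000645). RIGI, the sensor whose signalling OASL enhances, differed in the same direction by 1.04 (SE 0.19, adjusted p 0.0023). Of 10 tested sensors, 5 were lower and none higher under EDTA in Addback, where 8.29% of all genes were lower. In B4-4 1 sensor was higher (9.88% of all genes), and in Vector 1 was higher and 3 were lower (6.36% and 8.98% of all genes).

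Among receptors, IFNAR2, a chain of the type I receptor, fell by 1.10 under EDTA in Addback (SE 0.21, edgeR adjusted p 0.00476), and 3 of 6 receptor genes were lower there, beside 8.29% of all genes. IFNGR1, a chain of the interferon gamma receptor, fell by 0.69 under EDTA in B4-4 (SE 0.10, adjusted p 0.00116) and rose by 0.67 in Vector (SE 0.10, adjusted p 0.00115). In Addback IFNGR1 also fell under EDTA, by 0.33 (SE 0.10, adjusted p 0.0430). The 15 genes of antigen presentation had at most 2 called in any EDTA contrast within a derivative, beside 15.3% to 19.9% of all tested genes. With so few genes, that count does not set them apart from all genes. In Addback against B4-4 in NA, 5 of them were lower and 1 higher, beside 12.3% and 11.3% of all genes, HLA-B falling by 1.04 (SE 0.17, adjusted p 0.00149) or, without B4-4 NA 2, by 0.68, while GBP1, IFIT2 and IFIT3 were higher there. Class I HLA genes share sequence, and reads may be split between them.

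The 10 genes did not move as a block. Over the 12 libraries, Pearson's r of log2 CPM was positive for 30 of 45 pairs, with a median of 0.22. The libraries share derivative and treatment, so the values describe these 6 groups of 2. IFIT1 and IFIT2 were closest at 0.96, IFIT2 and IFIT3 reached 0.85, and GBP1 and IFIT3 reached 0.79. OAS1 ran against IFIT3 at -0.87 and against GBP1 at -0.82, and OAS3 had no value beyond 0.38 in size with another member. The genes outside the set with the pattern most like GBP1 were SRF (0.98), SPTBN1-AS2 (0.97) and MAFG (0.96). For IFIT3 they were HSPA1B (0.97), NQO1 (0.96) and CSNK1G2 (0.96), HSPA1B sharing reads with a near-identical copy. For OASL they were EFEMP2 (0.94), ABCA3 (0.93) and ZNF266 (0.91), and for OAS1 they were RIN1 (0.96), ADSS1 (0.96) and IQCN (0.96). The named genes are the highest of all tested genes outside the set, over 12 libraries and without a test. Among the 50 closest genes, ISG15 had 2 genes of the wider interferon list and each of the other 9 members had 0. That list holds 94 of the 15749 tested genes, so a count of 0 among 50 is common for any gene.

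**Figure D5:**
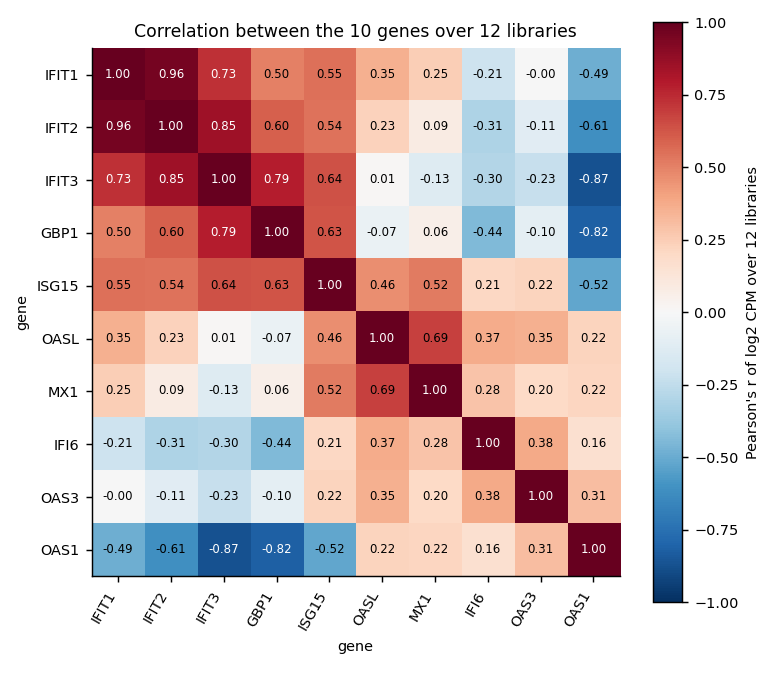
Pearson's r of log2 CPM over 12 libraries between the 10 genes, printed in each square, with red for positive and blue for negative values. The IFIT genes, GBP1 and ISG15 form the red corner, and OAS1 is blue against IFIT3 (-0.87) and GBP1 (-0.82).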

How the data were processed

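Poly-A RNA-seq counts per gene were deposited by the authors as 1 table of 12 libraries, with no column of another sample used. Per the submitters' processing notes, TopHat2 2.1.1, SAMtools 1.4.1 and featureCounts 1.5.3 were used; the roles of the builds named there, the strand setting and the annotation release are not stated there. Symbols and coordinates come from GENCODE annotation on GRCh38, matched by Ensembl identifier. Counts were tested in R 4.3.3 with edgeR 4.0.16 (robust quasi-likelihood, TMM scaling, low-count filter by expression with a minimum count of 10) on all 12 libraries and 13 contrasts, with Benjamini-Hochberg adjustment over 15749 genes and a threshold of 0.05. At least 99.87% of each total fell in tested genes. CPM are of TMM-scaled totals. Counting intervals are exact at 95% and cover counting error only.

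The 10 members are named in each contrast, the wider-list genes called with the smallest p (at most 2 per role and direction), ITGB4 once, and the 3 genes most like a member by Pearson's r. Some genes that this rule names are not reported here. The members and lists were chosen with earlier results of these data known. Alternatives were RLE and upper-quartile scaling, no filter, DESeq2 1.42.0, a replicate block, the run of library identifiers as a term, only the groups compared, and leaving out each library. Leaving out pairs of libraries was added after seeing the data. Where 1 library was left in a group, it was assumed to vary like the other groups. The code was tested on simulated data.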

Additional observations from a re-analysis of the deposited data

Results flagged for a closer look

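For 3 of the 10 genes the EDTA effect differed between derivatives in a direct test of the difference, on the log2 scale by edgeR's quasi-likelihood test. By contrast, 1 of 10 was called for Addback minus B4-4, beside 8.78% of all tested genes. For Addback minus Vector 2 were called, beside 24.2%, and for B4-4 minus Vector 2, beside 27%. These counts are near the shares over all genes. GBP1 gave -3.48 for Addback minus B4-4 (SE 0.21, adjusted p 1.1e-05), -2.83 for Addback minus Vector (SE 0.21, adjusted p 6.3e-06) and 0.65 for B4-4 minus Vector (SE 0.21, adjusted p 0.0408). IFI6 gave 0.91 for Addback minus Vector (SE 0.27, adjusted p 0.0293), and OAS3 gave 0.59 for B4-4 minus Vector (SE 0.19, adjusted p 0.0387). The GBP1 differences that involve Addback were kept in each of the 12 fits that left out a library. Of those fits, 6 kept the IFI6 call, 5 kept that of GBP1 for B4-4 minus Vector and 3 kept that of OAS3.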

How the results depend on the processing

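Of 34 calls among 130 pairs of member and contrast, 14 were kept under each setting listed with the methods, each left-out library included, and no value changed sign among those called. With no filter, the members called numbered 4 for EDTA in Vector, 3 for EDTA over the 3 derivatives, 2 for B4-4 against Vector in NA, 4 for Addback against B4-4 in EDTA and 2 for the effect difference Addback minus B4-4. DESeq2 gave 3 for EDTA over the 3 derivatives, 2 for B4-4 against Vector in NA, 2 for Addback against B4-4 in EDTA and 1 for Addback minus Vector. The identifier run term gave 5, 1 and 3 for EDTA in Vector, in Addback and over the 3 derivatives, 2 for B4-4 against Vector in NA, 3 for Addback against B4-4 in EDTA, 1 for B4-4 minus Vector and 2 for Addback minus B4-4. Only the groups compared gave 6 and 1 for EDTA in Vector and B4-4, 0 and 8 for B4-4 against Vector in NA and EDTA, 3 for Addback against B4-4 in NA, 9 for Addback against Vector in NA and 1 for B4-4 minus Vector. Upper-quartile scaling gave 0 for B4-4 minus Vector. Leaving out B4-4 NA 1 and Addback EDTA 1 gave 6, 5, 7 and 6 for EDTA in Vector, B4-4, Addback and over the 3 derivatives, 4 and 9 for B4-4 against Vector in NA and EDTA, 4 for Addback against B4-4 in EDTA, 9 for Addback against Vector in NA and 4 for Addback minus B4-4. Leaving out B4-4 NA 2 and Addback EDTA 2 gave 6 and 3 for EDTA in Vector and over the 3 derivatives, 2 and 9 for B4-4 against Vector in NA and EDTA, 4 for Addback against B4-4 in EDTA, 9 for Addback against Vector in NA, 4 for B4-4 minus Vector, 4 for Addback minus Vector and 2 for Addback minus B4-4. The calls over all genes also moved widely between settings, as the ranges below show. The share of all genes called under each setting is not given beside these counts. The counts therefore do not set the members apart from all genes. The cause of these changes was not tested.

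Leaving out 1 library in turn, the members called ranged from 0 to 5 for EDTA in Vector, 1 to 3 in B4-4, 1 to 5 in Addback and 1 to 3 over the 3 derivatives. The range was 0 to 4 and 2 to 6 for B4-4 against Vector in NA and EDTA, 2 to 7 and 1 to 4 for Addback against B4-4, and 3 to 6 and 1 to 4 for Addback against Vector. For the effect differences it was 0 to 3 for B4-4 minus Vector, 1 to 2 for Addback minus Vector and 1 to 2 for Addback minus B4-4. Over all genes, the calls for EDTA were 2666 in Addback (615 to 5858 over all alternatives), 3138 in B4-4 (291 to 6069), 2416 in Vector (724 to 5682) and 1445 over the 3 derivatives (470 to 5306). B4-4 against Vector gave 1128 in NA (6 to 4945) and 6831 in EDTA (4383 to 9310), Addback against B4-4 gave 3723 in NA (1290 to 6266) and 2217 in EDTA (692 to 5199), and Addback against Vector gave 5681 in NA (3137 to 9318) and 4728 in EDTA (2718 to 7119). The effect differences gave 4249 for B4-4 minus Vector (2364 to 7123), 3818 for Addback minus Vector (2138 to 6815) and 1383 for Addback minus B4-4 (403 to 4135). Upper-quartile scaling moved the share of called genes that were higher to 36.8%, against 49.6%, for EDTA in B4-4, to 32.6%, against 43.3%, over the 3 derivatives, and to 42.0%, against 53.4%, for B4-4 minus Vector, where the median of all genes was -0.12.

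Replicate numbers did not pair the samples: deviations of same-numbered libraries correlated between -0.04 and 0.06 over 15 pairs of groups. With the replicate block, the members called were 6, against 5, for Addback against B4-4 in NA, and the count did not move in the other contrasts.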
